A study of Mus musculus with 9 samples.

Results

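Small nucleolar RNA (snoRNA) host transcripts are long RNAs whose introns carry snoRNAs. The 10 genes described here are Gas5, Snhg1, Snhg3, Snhg5, Snhg6, Snhg8, Snhg12, Snhg15, Zfas1 and 1110038B12Rik. They were chosen by name, with their values in these same libraries already known, so their levels and differences are given as a description and were not tested. All 10 were found among 52306 named genes, as 112 of 158719 transcripts, and all 10 were among the 10453 genes that averaged 1 FPKM or more (fragments per kilobase of transcript and per library total). The RNA came from 4T1 cells, a mouse mammary carcinoma line, collected on day 2 in 3 groups of 3 libraries. The first group was treated with MK1775 (adavosertib, an inhibitor of the kinase Wee1), the second carries the label of a Wee1 knockdown by small interfering RNA (siRNA), and the third is labelled NC, a negative control. The labels state neither an MK1775 dose nor the siRNA sequences nor what NC cells received, and they leave unsaid whether replicates were separate cultures and whether the siRNA numbers 1 to 3 stand for replicates or for different siRNAs. The 3 libraries were treated as replicates, and p-values measure the spread between these libraries, which may be technical.

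A host gene has 2 kinds of product. Splicing releases the introns, from which snoRNAs of the box C/D class, guides of ribose methylation, and of the box H/ACA class, guides of pseudouridylation, are trimmed out to act on ribosomal RNA. The joined exons form a long RNA that in most hosts encodes no conserved protein. In mammalian cells many spliced hosts are known to be translated from short reading frames and then degraded by nonsense-mediated decay, which also removes some stress-response mRNAs. Many host genes also start transcription with a C followed by a run of pyrimidines, the terminal oligopyrimidine (TOP) motif shared with ribosomal protein genes.

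The sequences at the transcription starts are shown because the TOP motif is read there. The RefSeq promoter table (GRCm38.p6) held 9 of the 10 genes, and Snhg6 was not matched. Where a gene had more than 1 start in that table, the start nearest the main transcript was taken. The starts shown lay 0 to 99 bases from that transcript. The main transcript of Snhg5 was not matched to GENCODE M21. Its distance of 32 bases is from the most abundant matched transcript instead. Each line gives 35 bases before the start and 25 bases from it onward, in the direction of transcription, and capitals mark the longest run of C or T overlapping the stretch from 5 bases before to 20 bases after the start.
Gas5, chr1:161035131-161035190, plus strand: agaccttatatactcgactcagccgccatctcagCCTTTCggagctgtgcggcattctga
Snhg1, chr19:8723452-8723511, plus strand: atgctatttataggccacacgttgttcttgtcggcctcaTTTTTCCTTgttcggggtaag
Snhg3, chr4:132353662-132353721, minus strand: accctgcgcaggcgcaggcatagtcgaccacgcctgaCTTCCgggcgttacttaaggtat
Snhg5, chr9:88522873-88522932, minus strand: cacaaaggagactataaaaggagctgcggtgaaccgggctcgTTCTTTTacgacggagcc
Snhg8, chr3:123508312-123508371, minus strand: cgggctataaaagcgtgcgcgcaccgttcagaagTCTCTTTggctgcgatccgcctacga
Snhg12, chr4:132308643-132308702, plus strand: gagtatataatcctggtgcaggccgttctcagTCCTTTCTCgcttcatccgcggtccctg
Snhg15, chr11:6528736-6528795, minus strand: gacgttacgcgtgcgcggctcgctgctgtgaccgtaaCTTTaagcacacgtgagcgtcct
Zfas1, chr2:167062899-167062958, plus strand: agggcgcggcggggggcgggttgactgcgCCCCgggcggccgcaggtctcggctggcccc
1110038B12Rik, chr17:34952444-34952503, minus strand: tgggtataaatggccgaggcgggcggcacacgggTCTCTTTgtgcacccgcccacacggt

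The run of pyrimidines had a median length of 7 bases in these 9 genes and of 4 bases over the table. A C at the start with 4 pyrimidines after it, read on the gene's own strand, stood in 3 of the 9 promoters (Gas5, Snhg8 and 1110038B12Rik), against 2.51% of all 32851 promoters. When the C was allowed to lie up to 3 bases to either side of the start, 5 of the 9 held it, against 11.54% of all promoters. The letters TATAAA on the gene's strand lay 20 to 40 bases before the start in Snhg5, Snhg8 and 1110038B12Rik, against 1.99% of all promoters. Over the whole window of 250 bases before to 50 after the start, on either strand, TGACGTCA was found in Gas5 and Snhg15 (1.79% of all promoters), CACGTG in Snhg15 (7.15%) and TGATGCAA in none of the 9 (0.895%). These matches describe letters in these windows and say nothing of a bound factor.

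A pair of introns shows what a spliced host has lost. In the Gas5 transcript of 11 exons, intron 9 holds the box C/D snoRNA Snord47, at chr1:161038082-161038158 on the plus strand of GRCm38. In the Zfas1 transcript of 5 exons, intron 3 holds Snord12, at chr2:167065276-167065365 on the plus strand. The first line of each pair is the joined exon ends in the spliced RNA, with the downstream exon in capitals, and the second is the snoRNA, with capitals on box C (TGATGA, with an A or G before it where there is one) and on the last CTGA, box D.
Gas5 junction of exons 9 and 10: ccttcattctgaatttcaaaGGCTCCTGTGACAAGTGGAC
Snord47: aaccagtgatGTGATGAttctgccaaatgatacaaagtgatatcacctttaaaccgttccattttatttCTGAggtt
Zfas1 junction of exons 3 and 4: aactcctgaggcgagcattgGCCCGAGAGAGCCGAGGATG
Snord12: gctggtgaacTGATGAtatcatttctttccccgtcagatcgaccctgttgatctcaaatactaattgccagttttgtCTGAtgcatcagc

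The libraries were alike in total signal, with a summed FPKM of 321551 to 332950. Named genes at 1 FPKM or more numbered 10361 to 10415 in MK1775, 10457 to 10783 in the libraries labelled Wee1 siRNA and 10017 to 10172 in NC. Unnamed transcripts held 12.1% to 12.6%, 12.3% to 12.8% and 10.0% to 11.2% of the FPKM in the same order of groups. Since FPKM does not keep the number of reads, the depth is unknown and no counting interval can be given. Wee1 mRNA was not lower in the libraries labelled Wee1 siRNA: it averaged 15.5 ± 1.16 FPKM in MK1775 and 14.5 ± 1.22 FPKM in the libraries labelled Wee1 siRNA, against 11.01 ± 0.498 FPKM in NC (SD, n = 3 each), and it rose in both (limma adjusted p = 0.00226 and 0.00633). These libraries are named by their label throughout, and no direction is ascribed to a loss of Wee1. Of 6 epithelial markers 4 averaged at least 1 FPKM, with Epcam and Cldn4 below that level, and their summed level was 777 to 791 FPKM in MK1775, 721 to 724 FPKM in the libraries labelled Wee1 siRNA and 433 to 496 FPKM in NC. Most of that sum is Krt8 and Krt18, while Krt7 was lower than NC without overlap, at 13.9 ± 2.48 FPKM in MK1775 and 14.03 ± 4.04 FPKM in the libraries labelled Wee1 siRNA, against 24.4 ± 4.03 FPKM in NC (SD, n = 3 each). The 5 immune markers summed to 5.27 to 7.34, 6.24 to 8.17 and 8.72 to 10.1 FPKM in the same order of groups, with 2 of them at 1 FPKM or more and Adgre1 and Cd3e at 0 in all 9 libraries. The 5 stromal markers, 1 of them at 1 FPKM or more, summed to 2.02 to 2.71, 2.53 to 2.98 and 2.20 to 3.47 FPKM, and the 4 blood markers, none of them at that level, to 0.713 to 0.848, 1.04 to 1.08 and 0.0448 to 0.0951 FPKM. The part of these marker levels in the results below was not tested, and in bulk RNA fewer cells of a type and less RNA per cell cannot be told apart.

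The 10 host genes together made up 657, 666 and 672 FPKM in MK1775 and 671, 598 and 761 FPKM in the libraries labelled Wee1 siRNA, against 350.4, 283 and 326 FPKM in NC. The 6 treated libraries all lay above the 3 NC libraries, and the mean sum was 2.08 times that of NC in MK1775 and 2.11 times in the libraries labelled Wee1 siRNA. Both comparisons use the same 3 NC libraries, so they are not independent of each other. Single genes ran from 3.28 times to 0.677 times the NC level in MK1775. Against NC, 8 of the 10 genes were higher in MK1775 with no overlap between the groups, Snhg3 was lower with no overlap, and Snhg6 overlapped, where 23.8% of the genes tested were higher and 30.1% lower without overlap. Among the libraries labelled Wee1 siRNA 7 genes were higher without overlap, Snhg3 was lower, and Snhg5 and Snhg6 overlapped, with a background of 24.1% higher and 28.1% lower. Since the genes were picked with these values in view, nothing is read from these counts. The median difference over the 10 genes, as log2(FPKM + 1), was 0.89 for MK1775 minus NC and 0.89 for the libraries labelled Wee1 siRNA minus NC, beside medians of -0.04 and -0.01 over all genes tested.

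**Figure D1:**
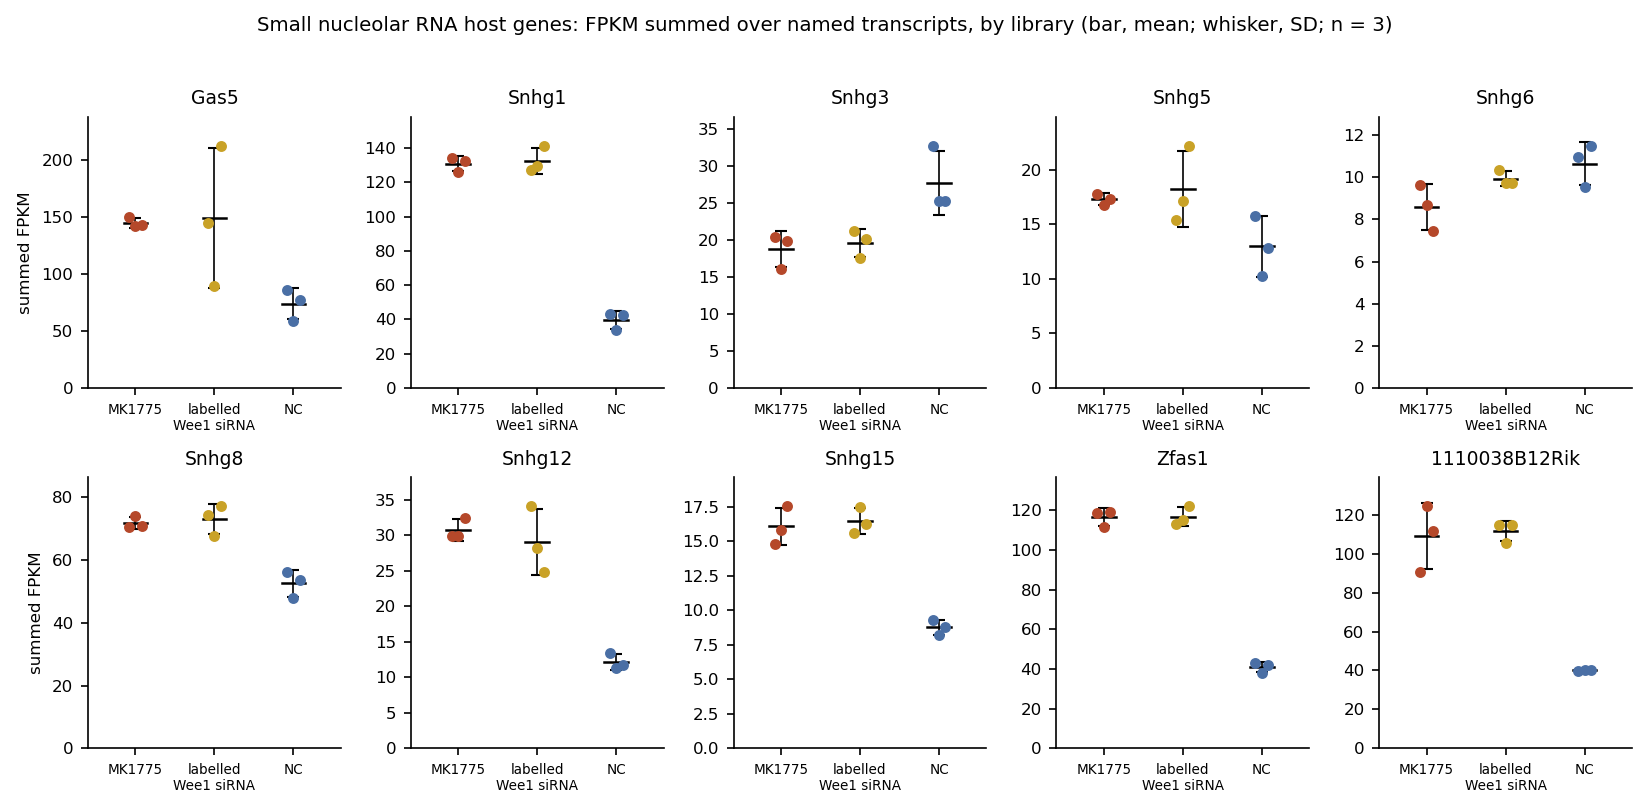
Summed FPKM of each of the 10 host genes by library (points), with the group mean (bar) and SD (whisker), for MK1775, the libraries labelled Wee1 siRNA and NC, n = 3 each; each panel has its own vertical axis from 0. Snhg1, Zfas1, 1110038B12Rik and Snhg12 had the highest ratios to NC, while Snhg3 lies higher in NC and Snhg6 overlaps.

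Snhg1, Zfas1, 1110038B12Rik and Snhg12 had the highest ratios to NC in both comparisons. Snhg1 lies at chr19:8700839-8703807 on the plus strand (GRCm39, the build of the deposited table, as are all gene spans here) and has 18 named transcripts. It stood at 134, 126 and 133 FPKM in MK1775 and 127, 129 and 141 FPKM in the libraries labelled Wee1 siRNA, against 43.2, 33.7 and 42.7 FPKM in NC. Every treated library was above every NC library, and the means were 3.28 and 3.33 times that of NC, ranks 105 and 124 among the 10453 log2 differences. Zfas1, at chr2:166904854-166907782 on the plus strand, runs antisense to the start of Znfx1. It stood at 119, 112 and 119 FPKM in MK1775 and 113, 115 and 122 FPKM in the libraries labelled Wee1 siRNA, against 43.3, 38.3 and 41.8 FPKM in NC. That was 2.84 times the NC mean in both groups, with no overlap.

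1110038B12Rik, the host of Snord52 at chr17:35169214-35171447 on the minus strand, stood at 90.8, 124 and 112 FPKM in MK1775 and 115, 106 and 115 FPKM in the libraries labelled Wee1 siRNA, against 39.96, 40.3 and 40.4 FPKM in NC. The NC libraries were nearly level, the first MK1775 library was the lowest of the treated ones, and the groups did not overlap at 2.71 and 2.78 times the NC mean. Snhg12, at chr4:132035934-132038335 on the plus strand and a host of mainly box H/ACA snoRNAs, stood at 29.9, 29.9 and 32.5 FPKM in MK1775 and 34.1, 28.3 and 24.9 FPKM in the libraries labelled Wee1 siRNA, against 13.4, 11.3 and 11.8 FPKM in NC. Its means were 2.53 and 2.39 times that of NC, again without overlap.

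Gas5, named for its accumulation in growth-arrested cells and known as a decay-sensitive host of box C/D snoRNAs, lies at chr1:160861992-160866109 on the plus strand with 25 named transcripts. It had the highest mean of the 10 in each group, at 150.3, 142 and 143 FPKM in MK1775 and 145, 89.8 and 213 FPKM in the libraries labelled Wee1 siRNA, against 85.8, 58.8 and 77.5 FPKM in NC. The MK1775 libraries lay close together, while those labelled Wee1 siRNA ranged widely, the second of them lying just above the highest NC library. The means were 1.96 and 2.01 times that of NC. The log2 difference of 0.93 for the libraries labelled Wee1 siRNA minus NC was 1.25 without the second of them and 0.63 without the third. An assembled transcript of 12 exons and 567 bases that carries no gene name lies at the same locus, and it was listed at 73.9 FPKM in that second library. With the unnamed transcripts of the locus added, Gas5 stood at 150.3, 156 and 143 FPKM in MK1775 and 160.2, 164 and 213 FPKM in the libraries labelled Wee1 siRNA, against 86.2, 59.3 and 77.7 FPKM in NC.

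Smaller differences were seen in 3 hosts. Snhg15, at chr11:6475591-6478804 on the minus strand, stood at 14.8, 15.9 and 17.5 FPKM in MK1775 and 15.6, 17.5 and 16.3 FPKM in the libraries labelled Wee1 siRNA, against 9.30, 8.20 and 8.77 FPKM in NC, or 1.84 and 1.88 times. Snhg8, the host of the H/ACA snoRNA Snora24 at chr3:123301201-123302053 on the minus strand, stood at 70.5, 73.9 and 70.7 FPKM in MK1775 and 74.3, 67.6 and 77.1 FPKM in the libraries labelled Wee1 siRNA, against 56.0, 47.9 and 53.7 FPKM in NC, or 1.37 and 1.39 times. Neither gene overlapped with NC in either group. Snhg5, at chr9:88377321-88405615 on the minus strand, stood at 17.8, 16.8 and 17.4 FPKM in MK1775 and 15.4, 17.1 and 22.2 FPKM in the libraries labelled Wee1 siRNA, against 15.8, 10.3 and 12.9 FPKM in NC. Its MK1775 libraries were all above NC, but the first library labelled Wee1 siRNA lay below the highest NC library.

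The remaining hosts were lower than NC or overlapped it. Snhg3, host of the H/ACA snoRNA Snora73b at chr4:132075325-132081001 on the minus strand, stood at 20.4, 16.03 and 19.9 FPKM in MK1775 and 21.2, 17.6 and 20.1 FPKM in the libraries labelled Wee1 siRNA, against 32.7, 25.2 and 25.2 FPKM in NC. All 6 treated libraries were below all 3 NC libraries, at 0.677 and 0.708 times the NC mean. Snhg6, at chr1:10012184-10014385 on the minus strand, stood at 9.64, 8.70 and 7.45 FPKM in MK1775 and 10.3, 9.74 and 9.75 FPKM in the libraries labelled Wee1 siRNA, against 10.9, 9.52 and 11.48 FPKM in NC, and overlapped NC in both comparisons.

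In MK1775 the levels, which are per length and can be set side by side, ran from Gas5 through Snhg1, Zfas1, 1110038B12Rik, Snhg8, Snhg12, Snhg3, Snhg5 and Snhg15 down to Snhg6. Neighbours in that order overlapped for Zfas1 and 1110038B12Rik, for Snhg3 and Snhg5, and for Snhg5 and Snhg15. In NC the order was Gas5, Snhg8, Zfas1, 1110038B12Rik, Snhg1, Snhg3, Snhg5, Snhg12, Snhg6 and Snhg15. Neighbours overlapped there for Zfas1 and 1110038B12Rik, for 1110038B12Rik and Snhg1, for Snhg5 and Snhg12, and for Snhg12 and Snhg6. Between the treated groups, 9 of the 10 genes overlapped, Snhg6 was lower in MK1775 without overlap, and none was higher, against 6.78% of the genes tested lower and 5.08% higher. With the unnamed transcripts of their own loci added, Snhg6 overlapped, at 13.7, 11.53 and 10.6 FPKM in MK1775 and 13.1, 13.99 and 12.7 FPKM in the libraries labelled Wee1 siRNA, and Gas5 was lower in MK1775 without overlap, at 0.837 times. The median difference over the 10 genes, MK1775 minus the libraries labelled Wee1 siRNA, was -0.03 on the log2 scale, beside -0.01 over all genes tested.

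The gene totals hide a split between transcripts, which was looked for and grouped after the values had been seen. Of the 112 transcripts, 89 were matched by identifier to GENCODE M21 (GRCm38), and each was sorted by whether its exons contain the sequence of a snoRNA hosted by that gene. A transcript that contains one has kept the intron, or part of it, around the snoRNA. Among transcripts annotated as retained intron 36 of 47 contained a snoRNA, and among the other annotated ones 9 of 42. Of the 23 unmatched transcripts 22 belong to Snhg5, its main one included, so the sorted ones hold only a minor part of that gene's FPKM. In the 8 genes with both kinds, the transcripts without a snoRNA were higher than NC with no overlap in 8 of 8 genes in MK1775, at 1.497 to 5.94 times the NC mean with a median of 3.53, and in 8 of 8 genes in the libraries labelled Wee1 siRNA, at 1.53 to 5.18 times with a median of 3.50. In the other 2 genes, Snhg3 and Snhg6, none contained a snoRNA, and there Snhg3 was lower without overlap and Snhg6 overlapped in both comparisons, so that over all 10 hosts these transcripts were higher in 8. The transcripts that contain a snoRNA were higher in 0 of 8 genes, lower in Snhg8 and overlapping in the other 7, at 0.518 to 1.01 times NC in MK1775 with a median of 0.758, and at 0.595 to 1.34 times in the libraries labelled Wee1 siRNA with a median of 1.03. In Snhg5 the transcripts that contain one were at 0.124 FPKM or less in every library. The split was made for these host genes only, so it has no background over other genes.

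In Gas5 the transcripts without a snoRNA summed to 100.3, 103 and 103 FPKM in MK1775 and 107, 45.3 and 144 FPKM in the libraries labelled Wee1 siRNA, against 29.7, 26.4 and 26.6 FPKM in NC. Those with a snoRNA summed to 49.96, 39.7 and 40.4 FPKM in MK1775 and 38.1, 44.6 and 68.2 FPKM in the libraries labelled Wee1 siRNA, against 56.1, 32.4 and 50.8 FPKM in NC. The first kind was separated from NC in every library and the second was not. Zfas1 showed the same split: its transcripts without a snoRNA stood at 96.01, 92.2 and 99.2 FPKM in MK1775 and 87.7, 91.9 and 94.0 FPKM in the libraries labelled Wee1 siRNA, against 23.6, 19.6 and 20.6 FPKM in NC. Its transcripts with one stood at 21.6, 18.6 and 18.3 FPKM in MK1775 and 22.9, 19.8 and 26.8 FPKM in the libraries labelled Wee1 siRNA, against 19.4, 18.3 and 20.9 FPKM in NC. Thus the Zfas1 transcripts sorted as containing a snoRNA were at 0.997 and 1.18 times the NC mean while the others were at 4.51 and 4.29 times. All 3 of the former differ in length between the deposited models (665, 560 and 782 bases) and GENCODE M21 (525, 2302 and 731 bases). Whether the deposited Zfas1 models contain the snoRNA is therefore not known.

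Snhg1 differed most in absolute level. Its transcripts without a snoRNA stood at 124, 111 and 123 FPKM in MK1775 and 116, 118 and 98.7 FPKM in the libraries labelled Wee1 siRNA, against 23.2, 22.9 and 24.7 FPKM in NC. Those with a snoRNA stood at 10.3, 15.6 and 9.14 FPKM in MK1775 and 10.7, 11.9 and 42.6 FPKM in the libraries labelled Wee1 siRNA, against 19.95, 10.9 and 18.1 FPKM in NC. The third library labelled Wee1 siRNA was far above its group in the snoRNA-containing transcripts and the lowest of its group in the others. In 1110038B12Rik the transcripts without a snoRNA averaged 97.7 ± 17.6 FPKM in MK1775 and 99.3 ± 5.23 FPKM in the libraries labelled Wee1 siRNA, against 29.0 ± 2.00 FPKM in NC (SD, n = 3 each). Those with a snoRNA averaged 11.3 ± 1.89, 12.4 ± 1.82 and 11.2 ± 1.81 FPKM in the same order of groups.

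Snhg12 had the highest ratio, with 24.3 ± 3.47 FPKM in MK1775 and 21.2 ± 7.18 FPKM in the libraries labelled Wee1 siRNA, against 4.09 ± 0.586 FPKM in NC, for transcripts without a snoRNA. In Snhg15 these averaged 15.3 ± 1.37, 15.5 ± 0.700 and 7.55 ± 0.342 FPKM, in Snhg8 66.5 ± 1.30, 68.2 ± 3.56 and 44.4 ± 2.50 FPKM, and in Snhg5 4.34 ± 0.971, 4.11 ± 1.70 and 2.44 ± 0.425 FPKM, for MK1775, the libraries labelled Wee1 siRNA and NC. The Snhg5 gene sums averaged 17.3, 18.2 and 12.98 FPKM in that order of groups. Many deposited transcript models differ in length from GENCODE M21, so a snoRNA can be inside one model and outside the other. Restricted to the 43 transcripts whose length was within 10 bases in both, 4 genes kept both kinds (Gas5, Snhg1, Snhg12 and 1110038B12Rik), and in all 4 the transcripts without a snoRNA were higher than NC without overlap in both comparisons while those with one overlapped. StringTie divides fragments that several isoforms share among them, so transcript values within a gene are not independent.

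**Figure D2:**
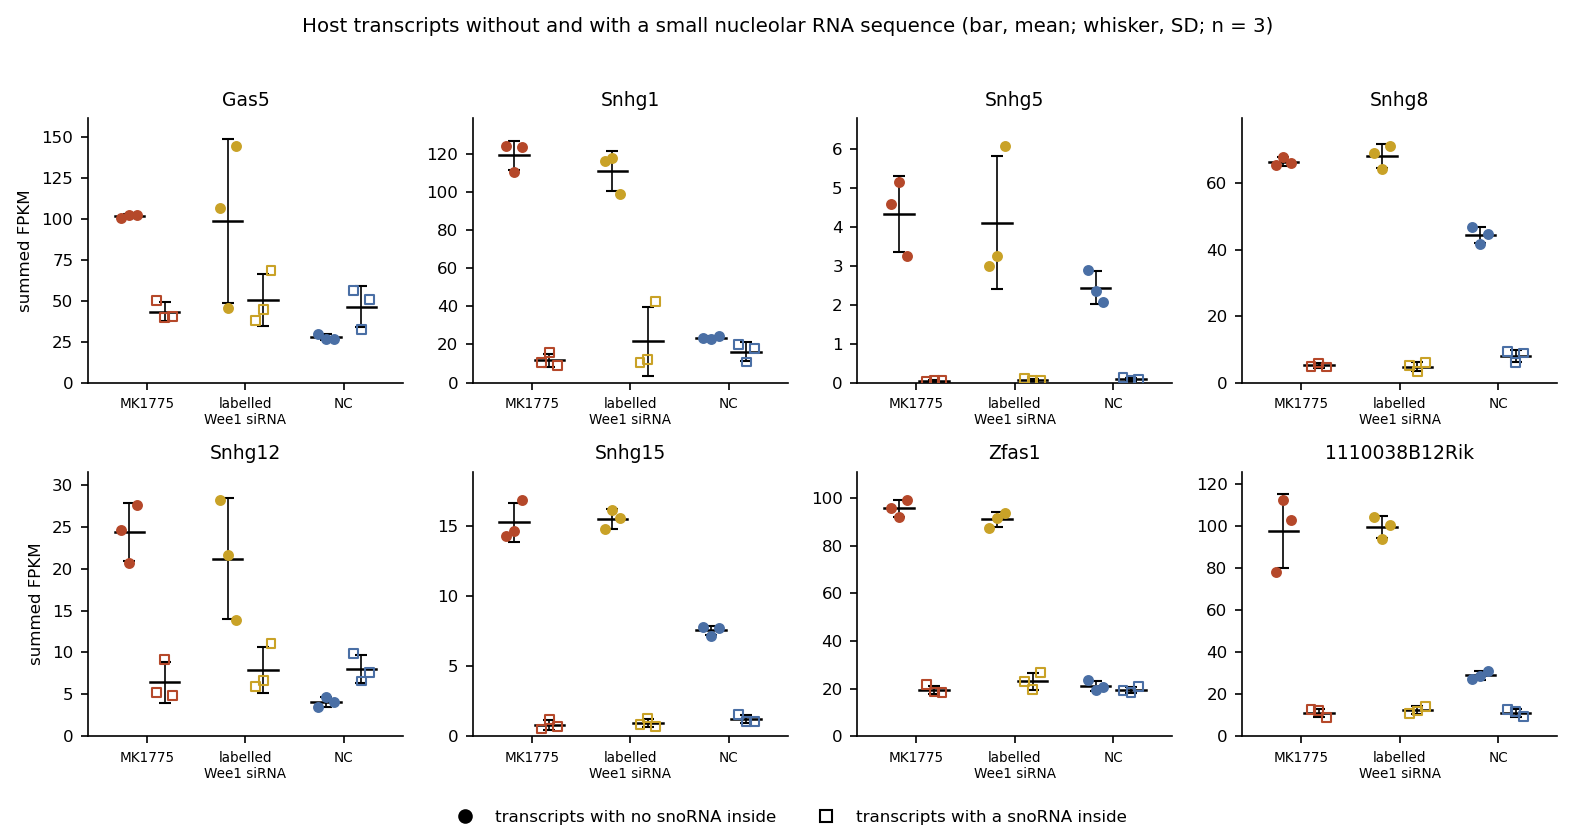
FPKM per library summed over transcripts without a snoRNA sequence inside (filled circles) and with one (open squares), for the 8 host genes that have both, by group (MK1775, libraries labelled Wee1 siRNA, NC); bars are means and whiskers SD, n = 3, and each panel has its own vertical axis from 0. Filled circles of the treated groups lie above those of NC in all 8 panels, and open squares overlap NC in 7 of them.

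The annotated class of retained intron can be set against other genes. In 6 host genes, Gas5, Snhg1, Snhg5, Snhg8, Zfas1 and 1110038B12Rik, such transcripts occurred beside others, as they did in 6056 genes in all. The share was taken only over transcripts matched to GENCODE M21. In Snhg5, where these hold a minor part of the FPKM, it averaged 81.3% in NC. Of all named Snhg5 FPKM, the most abundant retained-intron transcript held 9.05%, 7.92% and 2.82% in MK1775 libraries. It held 6.54%, 4.37% and 1.75% in those labelled Wee1 siRNA, against 15.5%, 17.8% and 12.9% in NC. The class was joined by identifier only. All 4 retained-intron models of Zfas1 differ in length from GENCODE M21 (665, 659, 560 and 782 bases against 525, 567, 2302 and 731). Whether the deposited Zfas1 models retain an intron is therefore not known. In Zfas1 the transcripts of this class took 22.8%, 21.5% and 23.7% of the annotated FPKM in MK1775 libraries. They took 25.5%, 24.5% and 28.4% in those labelled Wee1 siRNA, against 61.1%, 57.7% and 61.1% in NC. In Gas5 they took 41.3%, 36.0% and 40.6% in MK1775 libraries and 32.8%, 66.9% and 51.2% in those labelled Wee1 siRNA, against 81.0%, 70.8% and 79.2% in NC. The retained-intron share was thus lower in every treated library than in any NC library for both genes. The level of these transcripts differed less: in Zfas1 it was 26.8, 23.8 and 27.9 FPKM in MK1775 and 28.2, 27.3 and 34.2 FPKM in the libraries labelled Wee1 siRNA, against 26.3, 21.9 and 25.3 FPKM in NC. MK1775 overlapped NC there, and the libraries labelled Wee1 siRNA lay above it at 1.22 times its mean. In Gas5 the retained-intron level was 62.1, 51.3 and 58.1 FPKM in MK1775 and 47.6, 60.1 and 109 FPKM in the libraries labelled Wee1 siRNA, against 69.5, 41.6 and 61.4 FPKM in NC, and overlapped in both comparisons. The share was lower without overlap in 6 of the 6 genes in MK1775 libraries, against 6.72% of the 6056 genes, and in 5 of 6 in those labelled Wee1 siRNA, against 4.06%. Snhg1 was the exception, at 10.1%, 10.7% and 42.0% in those labelled Wee1 siRNA, against 61.4%, 41.2% and 56.0% in NC. In Snhg5 and Snhg8 the retained-intron level was itself lower than NC without overlap in both comparisons. It was at 0.576 and 0.380 times the NC mean in Snhg5 and at 0.641 and 0.595 times in Snhg8. In Snhg1 and 1110038B12Rik that level overlapped NC in both comparisons. The hosts were picked with their gene sums in view, and where the retained-intron level is alike, a higher sum lowers the share. Nothing is therefore read from the counts of 6 of 6 and 5 of 6. The median difference in share over the 6 genes was -37.5 percentage points for MK1775 minus NC and -29.3 points for the libraries labelled Wee1 siRNA minus NC, beside 0.034 and 0.32 points over the 6056 genes. The median share in NC was 56.4% over the 6 genes and 2.06% over the 6056. A gene at 2.06% cannot fall as far, so this background is unlike the hosts. Between the treated groups the share was lower in MK1775 without overlap in 1 of the 6 genes, Zfas1, against 11.9% of the 6056.

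**Figure D3:**
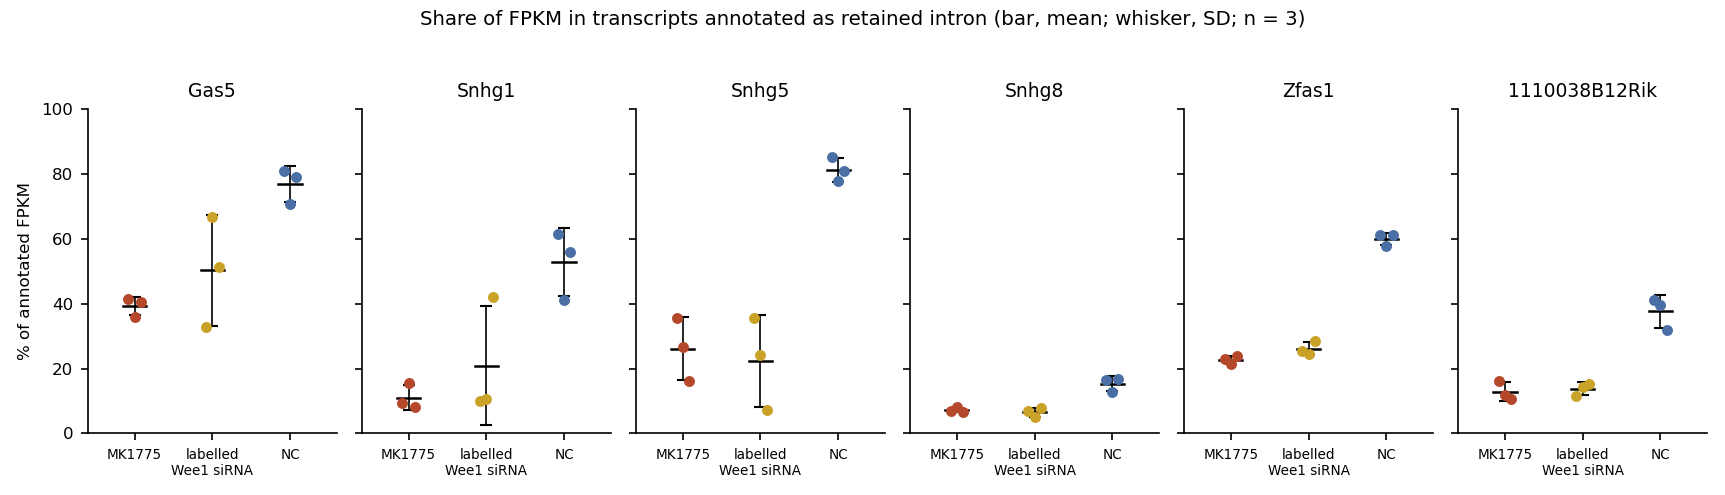
Percent of each gene's annotated FPKM in transcripts typed as retained intron, by library (points), with group mean (bar) and SD (whisker), for MK1775, the libraries labelled Wee1 siRNA and NC, n = 3 each, on an axis from 0 to 100%. In all 6 genes the MK1775 libraries lie below the NC libraries, and in Snhg1 the third library labelled Wee1 siRNA reaches into the NC range. Shares are over transcripts matched to GENCODE M21 only, which hold a minor part of the FPKM in Snhg5. The Zfas1 models of this type differ in length from GENCODE M21.

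In Snhg1, Gas5, Zfas1 and 1110038B12Rik the main transcript, the one with the highest mean over the 9 libraries, contained no snoRNA and showed a wider ratio to NC than the gene sum. The Snhg1 transcript of 10 exons and 605 bases averaged 115 ± 8.80 FPKM in MK1775 and 95.2 ± 17.98 FPKM in the libraries labelled Wee1 siRNA, against 12.01 ± 4.40 FPKM in NC (SD, n = 3 each), or 9.58 and 7.93 times. The Gas5 transcript of 11 exons and 559 bases averaged 58.7 ± 15.5 FPKM in MK1775 and 39.97 ± 31.5 FPKM in the libraries labelled Wee1 siRNA, against 9.90 ± 2.86 FPKM in NC. In the second library labelled Wee1 siRNA it was at 6.57 FPKM, below the NC range, in the library where the unnamed transcript of 12 exons was at 73.9 FPKM. The Zfas1 transcript of 5 exons and 738 bases averaged 89.1 ± 1.94, 84.4 ± 2.07 and 16.3 ± 0.372 FPKM, and that of 1110038B12Rik, of 5 exons and 582 bases, 79.5 ± 15.8, 80.2 ± 3.92 and 15.1 ± 1.30 FPKM, for MK1775, the libraries labelled Wee1 siRNA and NC. The main transcript's share of its gene was higher than in NC without overlap in 8 of 10 genes in MK1775 libraries, against 6.22% of 9100 genes, and in 6 of 10 in those labelled Wee1 siRNA, against 4.62%. It was lower without overlap in 0 of 10 in MK1775 libraries, against 10.4%, and in 1 of 10 in those labelled Wee1 siRNA, against 13.5%. That gene was Snhg5, with 36.4% in those labelled Wee1 siRNA and 42.2% in NC on average. An exact two-sided permutation test of 3 against 3 libraries cannot give a p below 0.1, so no call was made. Choosing the transcript over all 9 libraries favours those high in the 6 treated ones. The hosts were also picked with their gene sums in view, so nothing is read from these counts. When the transcript was chosen in NC alone, Gas5 changed to a retained-intron transcript of 7 exons and 1614 bases, whose share was 7.09% ± 0.250 in MK1775 libraries and 10.2% ± 4.11 in those labelled Wee1 siRNA, against 15.2% ± 3.05 in NC. Gas5 then left the 8 genes counted as higher in MK1775 libraries, being lower there without overlap. No background over other genes is given for this choice.

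The snoRNAs themselves were listed at low values. In 9 of the host genes 32 snoRNA entries were listed, of which 30 stayed under 0.5 FPKM in every library. Gm23201, inside Zfas1, reached 3.67, 3.01 and 5.02 FPKM in MK1775 and 3.07, 5.58 and 4.14 FPKM in the libraries labelled Wee1 siRNA, against 6.74, 4.30 and 3.71 FPKM in NC. Snora73b, inside Snhg3, reached 0.398, 0.799 and 0.647 FPKM in MK1775 and 0.577, 0.664 and 1.31 FPKM in the libraries labelled Wee1 siRNA, against 1.09, 0.613 and 1.71 FPKM in NC. Both overlapped between groups. Libraries of this kind capture such short RNAs poorly and their reads cannot be told from those of the host, so these values do not measure mature snoRNAs.

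Whether reads were counted by strand is not given in the sources used here, so host genes and the genes that overlap them share an uncertainty. Of 8 genes overlapping a host or within 1000 bases of it, 5 were tested. Slc3a2, the heavy chain of amino acid transporters, lies 106 bases from Snhg1 on the other strand and rose in both groups (log2 difference 0.76 ± 0.051 and 0.71 ± 0.051 SE, limma adjusted p = 2.02e-05 and 2.74e-05). Rcc1, the nucleotide exchange factor of Ran, overlaps Snhg3 on the same strand and fell with it (log2 difference -0.84 and -0.67, adjusted p = 0.00611 and 0.0169). Gm17300, on the other strand of Snhg3, fell as well, by 0.77 and 0.45 on the log2 scale (adjusted p = 0.00235 and 0.0263). How far the lower Snhg3 level holds reads of Rcc1 was not tested. Trnau1ap, 739 bases from Snhg12, fell by 0.38 and 0.35 (adjusted p = 0.0381 and 0.0498), while Snhg12 was higher. Znfx1, which overlaps Zfas1, was not called in either comparison (log2 difference 0.02 and -0.57, adjusted p = 0.952 and 0.0729), at 2.50, 1.25 and 2.33 FPKM on average in MK1775, the libraries labelled Wee1 siRNA and NC. Zbtb37, Mcmdc2 and Prss12 were below the minimum.

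Genes around the hosts, which are not among the 10, were tested in the limma fit, with p-values adjusted over all 10453 genes. Their lists were written from textbook knowledge with earlier results of these data known, so they are not independent of these data. Those named from each list had its smallest adjusted p-values for MK1775 minus NC. In the limma fit 17.9% of all genes rose and 23.1% fell in MK1775, and 19.6% rose and 23.2% fell in the libraries labelled Wee1 siRNA. Of 14 other long non-coding snoRNA hosts 7 were tested, 3 rose and none fell in either group, with a median log2 difference of -0.05 and -0.03. 2410006H16Rik was the most abundant of these, at 199 ± 5.98 FPKM in MK1775 and 188 ± 6.54 FPKM in the libraries labelled Wee1 siRNA, against 43.6 ± 3.40 FPKM in NC (log2 difference 2.17 and 2.08, adjusted p = 2.02e-07 and 2.19e-07). Snhg16 rose by 0.40 and 0.41 and Epb41l4aos by 0.49 and 0.64, while Snhg10 was not called, at 0.767, 0.905 and 1.52 FPKM on average in MK1775, the libraries labelled Wee1 siRNA and NC.

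The 20 protein-coding hosts, in which the exons make an abundant mRNA, did not move one way: 4 rose and 6 fell in MK1775, and 5 rose and 5 fell in the libraries labelled Wee1 siRNA. Eif4a1, the RNA helicase of translation initiation, averaged 399 FPKM in MK1775 and 391 FPKM in the libraries labelled Wee1 siRNA, against 775 FPKM in NC (log2 difference -0.95 and -0.98, adjusted p = 1.27e-06 and 1.03e-06). Hspa8, the constitutive Hsp70 chaperone, fell by 1.74 and 1.59, and Rack1, of the small ribosomal subunit, by 0.39 and 0.41. The median log2 difference over these 20 genes was 0.041 for MK1775 and 0.037 for the libraries labelled Wee1 siRNA.

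Of 18 proteins that assemble with snoRNAs, 3 rose and 8 fell in MK1775, and 3 rose and 9 fell in the libraries labelled Wee1 siRNA, with a median log2 difference of -0.19 and -0.28. Naf1, an assembly factor of H/ACA particles, averaged 11.2 FPKM in MK1775 and 10.97 FPKM in the libraries labelled Wee1 siRNA, against 17.2 FPKM in NC (log2 difference -0.57 and -0.60, adjusted p = 0.000129 and 9.87e-05). Nop10, a core H/ACA protein, fell by 0.46 and 0.56, and Ruvbl1, an ATPase used in box C/D assembly, by 0.44 and 0.44. Nufip1, another box C/D assembly factor, rose by 0.34 in both.

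Factors of nonsense-mediated decay were mixed as well, with 3 of 22 higher and 5 lower in MK1775, and 2 higher and 4 lower in the libraries labelled Wee1 siRNA. Pnrc2, a decapping partner, rose by 0.65 and 0.47 (adjusted p = 0.000878 and 0.00446). Smg8, a regulator of the kinase Smg1, fell by 0.39 and 0.33, Smg5, needed to dephosphorylate Upf1, by 0.33 and 0.22, and Magohb, of the exon junction complex, by 0.47 and 0.57. Of 12 protein-coding transcripts known to be sensitive to this decay, 7 rose and 3 fell in MK1775, and 6 rose and 3 fell in the libraries labelled Wee1 siRNA, with a median of 0.73 and 0.72. The stress-response factor Atf3 averaged 35.8 FPKM in MK1775 and 32.6 FPKM in the libraries labelled Wee1 siRNA, against 1.86 FPKM in NC (log2 difference 3.68 and 3.55, adjusted p = 1.13e-07 and 1.09e-07). Ddit3 rose by 3.26 and 3.37, Atf4, the translational stress regulator, by 0.95 and 0.91, and Gadd45a by 1.00 and 0.98. These genes are also known targets of other stress pathways, and stability of RNA was not measured.

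Ribosome biogenesis and RNA polymerase I genes rose in 5 of 22 and fell in 6 in MK1775, and rose in 5 and fell in 8 in the libraries labelled Wee1 siRNA. Rrp12, of subunit export, rose by 0.69 and 0.64 (adjusted p = 0.00019 and 0.000274), Ltv1 by 0.49 and 0.44 and Pes1 by 0.30 and 0.27, while Rrs1 fell by 0.27 and 0.21. Regulators of TOP mRNAs and of mTOR rose in 4 of 15 and fell in 3 in both groups. Eif4ebp1, an inhibitor of cap-dependent translation, rose by 0.61 and 0.59, Sesn2, an inhibitor of mTORC1 upstream, by 0.59 and 0.52, Larp1, which binds TOP mRNAs, fell by 0.34 and 0.43, and Rptor, a subunit of mTORC1, by 0.47 and 0.43. Between the treated groups limma called 0 of the 114 list genes, 6 had an unadjusted p under 0.05, and 0.00957% of all genes were called.

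**Figure D4:**
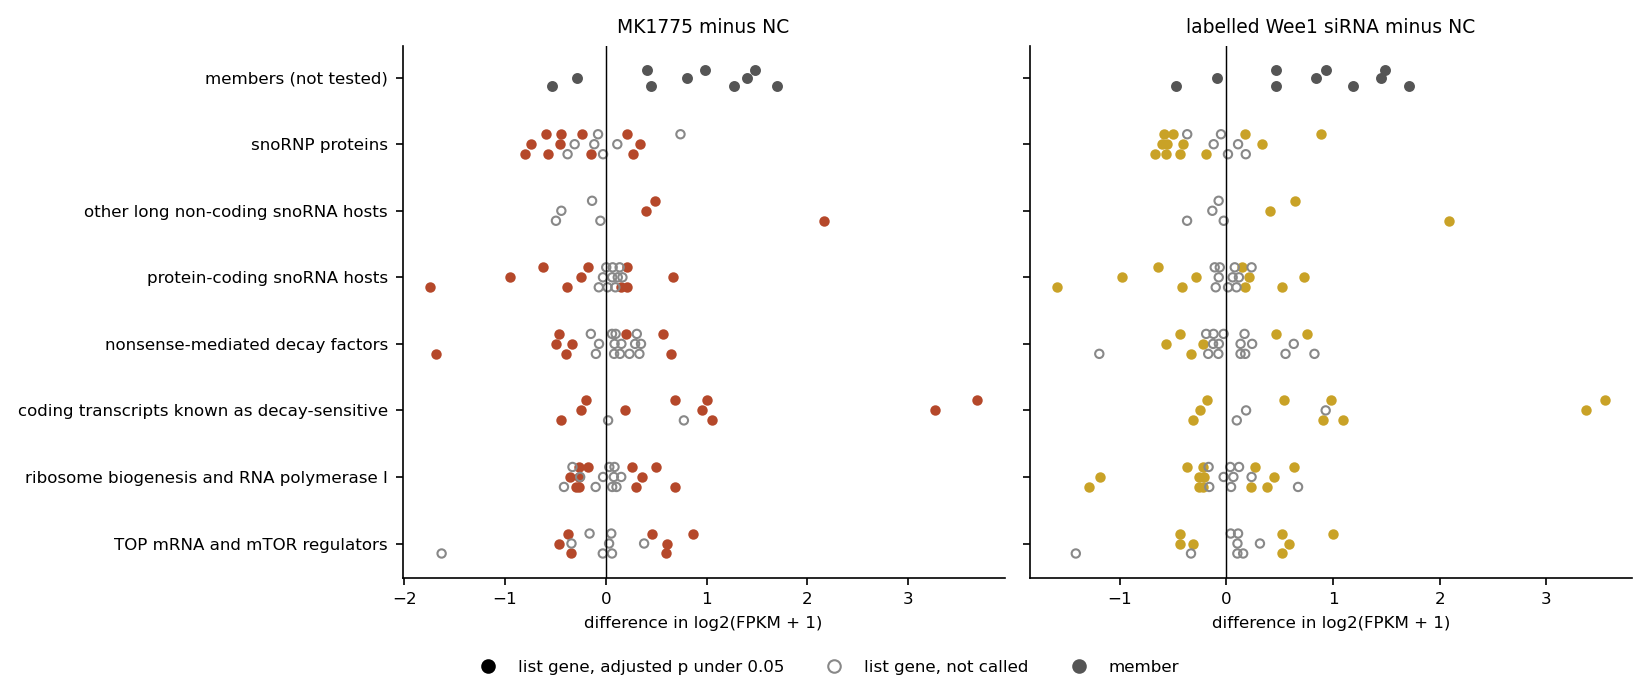
Difference in mean log2(FPKM + 1) from NC for the 10 host genes (grey, not tested) and for each tested gene of 7 lists, in MK1775 (left) and the libraries labelled Wee1 siRNA (right); filled coloured points had a limma adjusted p under 0.05 and open points did not. Atf3 and Ddit3 lie farthest right, at 3.68 and 3.26 in MK1775, and 2410006H16Rik is the rightmost of the other long non-coding hosts at 2.17.

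The genes whose pattern over the 9 libraries was nearest to a host were found by the Euclidean distance between log2(FPKM + 1) values centred on each gene's mean. Nearest to Gas5 were Gm10157 at 0.51, the splicing factor kinase Clk1 at 0.55 and Arl14ep at 0.57, and the nearest other host, Snhg5, ranked 379 at 1.02. Clk1 stood at 22.9, 22.3 and 22.5 FPKM in MK1775 and 21.3, 17.7 and 42.2 FPKM in the libraries labelled Wee1 siRNA, against 17.97, 10.4 and 14.4 FPKM in NC, and shared with the named Gas5 sum the spread among the libraries labelled Wee1 siRNA. With the unnamed transcripts of its locus added, Gas5 stood at 160.2, 164 and 213 FPKM in those libraries, without the low second value. Distances were taken on the named sums only. For Snhg1 the nearest gene was Skil, a repressor of Smad signalling, at 0.21, with Zfas1 in rank 9, and for Zfas1 it was the transcription factor Klf6 at 0.19, with Snhg1 in rank 28. The nearest genes were Kat8 for 1110038B12Rik (0.22), Gm8801 for Snhg12 (0.33), Wnt9a for Snhg15 (0.20), Rap1b for Snhg8 (0.12), Epc2 for Snhg5 (0.14), Tmem192 for Snhg3 (0.28) and Mtmr12 for Snhg6 (0.22). In no case was another of the 10 host genes the nearest.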

How the data were processed

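RNA-seq of 9 libraries was analysed from 1 deposited table. Per the submitters' processing notes, FastQC, Trim Galore, HISAT2 and StringTie were used with GRCm39, without versions. Per the labels' protocols, an NEBNext kit was used on 1.0 µg of total RNA per library, and whether poly(A) RNA was selected is not given in the sources used here. The authors deposited FPKM values per transcript, and 17991 of the transcripts carry no gene name. Columns were assigned to libraries by the names in the sample descriptions. FPKM values were summed by gene name, 19 names on more than 1 chromosome were left out, and genes that averaged 1 FPKM or more were tested on log2(FPKM + 1), a scale that understates the change of low genes. All 9 libraries entered 1 limma fit (limma 3.58.1, R 4.3.3; lmFit, contrasts.fit, eBayes with trend), with 3 group means, two-sided tests and Benjamini-Hochberg adjustment over 10453 genes at 0.05. Tables were handled with pandas 2.3.3 and numpy 2.4.6, and figures drawn with matplotlib 3.10.9.

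The host genes, lists and tests were chosen with earlier results of these data known, and the groupings by snoRNA content and by retained intron after the values were seen. Named genes are the hosts, Wee1, up to 4 genes per list with the smallest adjusted p for MK1775 minus NC, all neighbours within 1000 bases, and the nearest genes by pattern (3 for Gas5, 1 for each other host). A gene that this rule names is not reported here. Transcript types, snoRNA positions and intron sequences came from GENCODE M21 on GRCm38, joined by identifier only, and promoters from RefSeq; no coordinates were converted. Alternatives were another pseudocount and minimum, no minimum, 2 rescalings, a replicate block, the most abundant transcript, added unnamed transcripts, fits of only 2 groups and leaving out each library.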

Additional observations from a re-analysis of the deposited data

Results flagged for a closer look

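At 3 loci an assembled transcript without a gene name was flagged for a low level in NC and a high one in a treated library. The gene sums by name do not include these transcripts. Unnamed transcripts at other host loci also exceeded every NC library in single treated libraries. That at Snhg1 was at 7.17 FPKM in the third library labelled Wee1 siRNA, against at most 2.23 FPKM in NC. At the Gas5 locus a transcript of 12 exons and 567 bases was at 73.9 FPKM in the second library labelled Wee1 siRNA, 15.1 FPKM in the first and 13.1 FPKM in the second MK1775 library, and at 0 in the other 6, NC included. At the Snhg3 locus, which Rcc1 shares, a transcript of 12 exons and 2435 bases was at 5.55 FPKM in the second MK1775 library and 3.88 FPKM in the third library labelled Wee1 siRNA, and at 0 in the other 7. At the 1110038B12Rik locus a transcript of 5 exons and 885 bases was at 10.2 FPKM in the first MK1775 library and 1.27 to 2.27 FPKM in the other 5 treated libraries, against 0.0906 to 0.429 FPKM in NC. These differences were not tested.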

How the results depend on the processing

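No host gene separated from NC without overlap changed direction in the alternative runs that were looked at gene by gene. A change was not looked for in Snhg6, nor in Snhg5 for the libraries labelled Wee1 siRNA, since these overlapped NC. Runs with another minimum, no minimum or only 2 groups were not looked at gene by gene. Of the values for single host genes, 457 moved by less than the spread between replicates and 23 moved by more. With the most abundant transcript in place of the gene sum, the median log2 difference of the 10 genes was 1.83 for MK1775 minus NC and 1.41 for the libraries labelled Wee1 siRNA minus NC. With the unnamed transcripts of their own loci added for all hosts but Snhg3, whose locus Rcc1 shares, the second median was 1.01. That alternative was chosen after seeing the data. Leaving out each library in turn gave 0.79 to 0.97 for MK1775 minus NC and 0.74 to 1.00 for the libraries labelled Wee1 siRNA minus NC. Between the treated groups the 1 gene called was Tmx2 (log2 difference 1.10, limma adjusted p = 0.0232, named after its values were seen); 616 genes had an unadjusted p under 0.05. The count was 11 with no minimum, 2 with the most abundant transcript and 0 to 3 without single libraries. With the replicate number as a block it was 0, against NC it was 3881 in place of 4282 and 4079 in place of 4474, and no other count moved by over 1.5 times; the numbers share no deviation (r of -0.12 to 0.044 over 9 pairs, none above 0.1). With transcripts of unchanged length only, 4 genes could be compared for snoRNA content in place of 8, and 4 were higher in both comparisons. The depth is unknown, so what it limits could not be given.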
